A study of Mus musculus with 8 samples.

Results

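A set of 10 genes known as targets of YAP and TEAD was followed through NMuMG cells, a mouse mammary epithelial line, in 8 RNA sequencing libraries. The genes, Ctgf, Cyr61, Ankrd1, Amotl2, F3, Nt5e, Crim1, Axl, Lats2 and Ajuba, were taken by symbol from the 18102 rows of the deposited table, which uses the older symbols Ctgf and Cyr61 for Ccn2 and Ccn1. All 10 passed the filter on low values, as did 12498 genes in all. The libraries form 4 groups of 2: WT cells under SB505124, WT cells under TGFβ, and the same treatments in cells labelled as an RREB1 knockout (KO). Every group was serum starved for 6 h. SB505124, which blocks the kinase of the type I TGFβ receptor, was given at 2.5 µM for 6 h, and TGFβ at 100 pM for 1.5 h, so agent and time cannot be told apart and no group was untreated. All KO libraries carry the code KO1, which is read here as 1 clone, so what is particular to that clone and what belongs to the genotype cannot be told apart. Nothing in the labels ties the replicates to separate cultures, and p-values therefore measure only the spread between these samples, which may be technical.

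YAP and TAZ are coactivators without a DNA-binding domain of their own. They enter the nucleus and switch on genes through TEAD factors when the Hippo kinases are inactive, for example in spread or stretched cells, and LATS kinases keep them in the cytoplasm by phosphorylation. In mammary epithelium the pathway is known for its response to cell density and matrix stiffness and for its contacts with TGFβ signalling, since SMAD and TEAD complexes share some target genes. The 10 genes differ in role. Ctgf and Cyr61 encode secreted matricellular proteins of the CCN family, Ankrd1 encodes a nuclear and sarcomeric ankyrin repeat protein, and F3, Nt5e, Crim1 and Axl encode cell surface proteins. Amotl2, Lats2 and Ajuba act on the pathway itself: angiomotins bind YAP at junctions, LATS2 phosphorylates YAP and TAZ, and the LIM protein AJUBA restrains LATS kinases.

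The DNA before the start of the genes is shown first, because TEAD binding is what the label of the group names. RefSeq promoter sequences (GRCm38.p6) matched 9 of the 10 genes; Ctgf had no entry. In the 250 bases before the start, both strands were searched for the TEAD core GGAATG, the AP-1 site TGANTCA, the SMAD element CAGACA and the CArG box of SRF. The TEAD core was found in 6 of the 9 genes, against 12.6% of the 32851 promoter windows in the RefSeq table. The following stretches of 26 bases hold those cores, in capitals, with 10 bases on either side, written 5′ to 3′ on the strand of the gene, so that a core on the other strand reads CATTCC.
Cyr61 (chr3:145650073-145650098, minus strand): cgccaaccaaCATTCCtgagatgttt
Ankrd1 (chr19:36120039-36120064, minus strand): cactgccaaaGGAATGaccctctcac
Ankrd1 (chr19:36119952-36119977, minus strand): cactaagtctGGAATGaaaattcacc
Amotl2 (chr9:102717729-102717754, plus strand): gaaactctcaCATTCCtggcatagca
Crim1 (chr17:78200159-78200184, plus strand): ggcgggggggGGAATGaggtaggatg
Axl (chr7:25788951-25788976, minus strand): aaattctacaGGAATGtttaccagac
Ajuba (chr14:54577832-54577857, minus strand): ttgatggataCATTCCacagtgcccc
Ajuba (chr14:54577810-54577835, minus strand): cccctccgcgCATTCCaactgtaaac

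For Ankrd1, Amotl2, Nt5e and both starts of Lats2 the RefSeq start lies inside the GENCODE M21 gene used below, so that these windows lie within that gene. The windows of Cyr61, Crim1, Axl and Ajuba, which also hold a core, lie wholly before the GENCODE start. Ajuba was the only gene whose bases just after the RefSeq start were not found in a GENCODE transcript of the gene. F3, Nt5e and both starts of Lats2 had no TEAD core in this window. The AP-1 site was found in F3 alone of the 9 genes, at 2 places, against 6.75% of all windows. SMAD elements were found in Ankrd1, Nt5e and Ajuba (17.1% of all windows), and the CArG box in none of the 9 (1.47% of all windows). A match describes letters in this window only and is no evidence of binding. Cyr61 and F3 are printed over the whole window, because both rose under TGFβ in either genotype while their windows held different motifs. Capitals mark the TEAD core in Cyr61 and the AP-1 sites in F3.
Cyr61 (chr3:145649986-145650235, minus strand): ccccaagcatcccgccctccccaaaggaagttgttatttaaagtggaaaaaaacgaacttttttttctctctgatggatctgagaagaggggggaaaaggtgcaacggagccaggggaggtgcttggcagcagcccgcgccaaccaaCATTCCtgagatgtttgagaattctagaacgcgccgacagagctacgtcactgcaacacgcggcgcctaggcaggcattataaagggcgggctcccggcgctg
F3 (chr3:121723287-121723536, plus strand): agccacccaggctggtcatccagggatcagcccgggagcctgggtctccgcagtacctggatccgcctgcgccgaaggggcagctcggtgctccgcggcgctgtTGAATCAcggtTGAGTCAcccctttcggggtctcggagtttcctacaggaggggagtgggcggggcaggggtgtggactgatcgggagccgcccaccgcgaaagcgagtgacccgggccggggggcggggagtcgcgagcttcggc

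Library totals ran from 25144204 to 32143113 reads. Among the members, reads per library ran from 949 (Nt5e) to 67682 (Ctgf), so that counting error was 3.25% at most. The epithelial label was checked on 7 luminal markers. Cdh1 (lowest library 13123 normalised counts), Krt8 (59377), Krt18 (76633) and Krt19 (16331) were high in all 8 libraries. Epcam did not exceed 36.6 and was at 0 in the 4 KO-labelled libraries. Gata3 and Elf5 were low as well, at 34.7 and 3.72 at most. Rreb1 was read in all 8 libraries and was higher in KO-labelled cells (1335 ± 11.3 against 1044 ± 15.4 under SB505124, 2361 ± 170 against 1864 ± 134 under TGFβ; mean ± SD, n = 2 each). A gene-level count cannot show a short edit, so KO is used below as a label only. Summed fibroblast markers (5 genes) were higher under TGFβ, at 512 to 669 in WT and 366 to 383 in KO-labelled libraries, than under SB505124, at 161 to 163 and 46.5 to 61.3. Of these 5, Col1a1 and Pdgfra were higher under TGFβ, Dcn was lower in WT (means 90.1 and 48.9) and at most at 1 read in a KO-labelled library, and Pdgfrb and Lum did not exceed 2.05. The 6 basal or myoepithelial markers summed to 798 to 807 in WT and 2329 to 2338 in KO-labelled libraries under SB505124, and to 530.3 to 572 and 1913 to 2114 under TGFβ. Most of that sum was Mylk (means 784 and 2257 under SB505124), Krt5 was higher in KO-labelled cells (0.507 and 69.4), Krt14 was at 0 in all KO-labelled libraries, and Trp63 did not exceed 5.07. The 5 leukocyte markers summed to 461 to 512 in WT and 561 to 683 in KO-labelled libraries over both treatments, mostly Lyz2 (314 to 466) and Cd68 (129 to 202), with Ptprc at 11.6 or less. The 3 endothelial markers in the table summed to 14.2 to 38.9 in WT and 1.86 to 12.5 in KO-labelled libraries, with Cdh5 at up to 27.4, Kdr at up to 11.6 and Pecam1 at up to 1.93. Whether these markers have a part in the results below was not tested.

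Under TGFβ the 10 genes did not move as a block in WT cells. Ctgf, Cyr61, F3 and Nt5e rose, Ankrd1, Crim1, Lats2 and Amotl2 fell, and Axl and Ajuba did not pass the test. These 8 calls of 10 stand against 43.3% of all tested genes, and against 51.2% of the genes with a mean of at least 1000, a level that all 10 genes reach. The 4 that rose stand against 20.2% of all genes called higher, and the 4 that fell against 23.2% called lower. At least 2-fold, 3 of the 10 were called, against 6% of all genes. The libraries of the treatments did not overlap in 8 of the 10 genes, against 69.8% of all genes. The median log2 fold change of the 10 genes was -0.07, beside -0.01 over all tested genes. Calls rest on limma with Benjamini-Hochberg adjustment over all 12498 genes at 0.05.

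**Figure D1:**
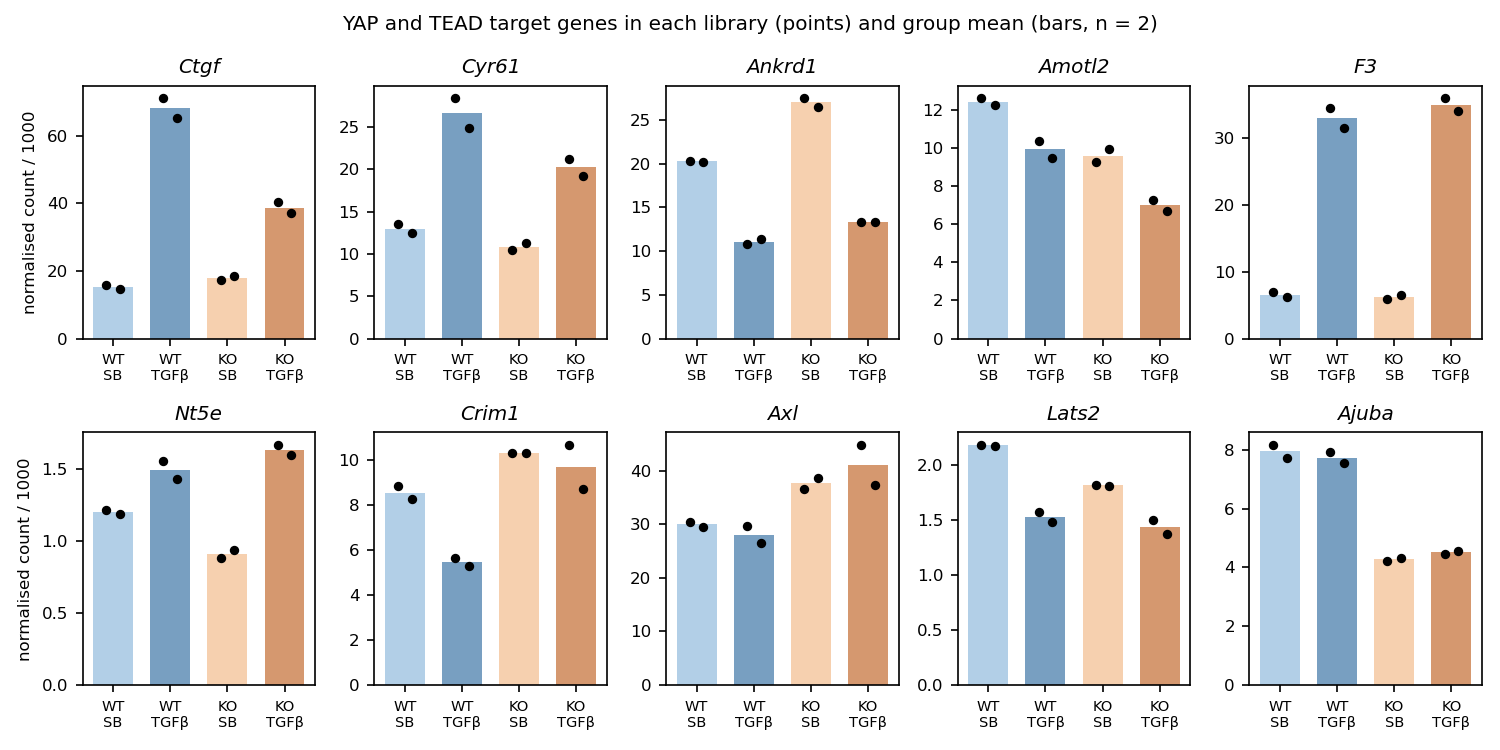
Normalised counts, divided by 1000 (vertical axes, each from 0), of the 10 genes in each library (points) with the group mean (bars, n = 2); WT in blue, KO-labelled in orange. Ctgf rises to 65439 and more in WT and to 40488 at most in KO-labelled cells under TGFβ, while Ankrd1 is lower under TGFβ in both.

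Ctgf (chr10:24595442-24598683 in GENCODE M21 on GRCm38, plus strand), whose product modulates growth factors in the matrix, stood at 15829.9 and 14774 normalised counts in the WT libraries under SB505124. Under TGFβ it stood at 71242 and 65439. The groups lay far apart, and the log2 fold change was 2.16 ± 0.09 (SE), or 4.46-fold (limma adjusted p = 1.4e-12). Of its annotated exon bases, 23.2% are also covered by Gm15270 on the opposite strand, which is not analysed here, and the kit does not mark the strand, so the reads of the pair cannot be told apart there. Cyr61 (chr3:145646976-145649981, minus strand), its CCN relative, went from 13593 and 12434 to 28456 and 24954. That is 2.05-fold (log2 1.04 ± 0.09, limma adjusted p = 5.2e-08), without overlap of the groups.

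F3, which encodes tissue factor, the cell surface starter of coagulation, had the largest rise of the 10. It stood at 6887 and 6225 under SB505124 and at 34404 and 31375 under TGFβ, 5.02-fold higher (log2 2.33 ± 0.09, limma adjusted p = 2.3e-13). By log2 fold change in WT, F3 was in place 99 and Ctgf in place 121 from the top of the 12498 genes. Nt5e, which encodes the adenosine-forming ectonucleotidase CD73, changed little by comparison. It went from 1211 and 1184 to 1552 and 1431, 1.24-fold (log2 0.32 ± 0.08, limma adjusted p = 0.00542), and this call was lost without WT SB505124 replicate 2 (limma adjusted p = 0.0513).

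Ankrd1 had the largest fall. It stood at 20335 and 20145 under SB505124 and at 10806 and 11359.6 under TGFβ, a log2 fold change of -0.87 ± 0.08 (limma adjusted p = 8.4e-08). Crim1, which encodes a transmembrane protein that binds BMPs, fell by 0.64 ± 0.09 on the log2 scale, from 8843 and 8253 to 5631 and 5304 (limma adjusted p = 1.6e-05). The 2.05% of its exon bases that overlap Fez2 on the opposite strand are not separated. The pathway's own inhibitors were among the falls. Lats2 went from 2189 and 2179 to 1573 and 1484 (log2 -0.52 ± 0.08, limma adjusted p = 5.2e-05), and Amotl2 from 12629 and 12257 to 10384 and 9470.4 (log2 -0.33 ± 0.08, limma adjusted p = 0.00331). For Lats2, 42.4% of the exon bases are shared with the same-strand gene model Gm49361, so its count is uncertain.

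Axl, a receptor tyrosine kinase, and Ajuba overlapped between the treatments in WT. Axl stood at 30500.3 and 29434 under SB505124 and at 29598 and 26403 under TGFβ (log2 -0.10 ± 0.10, limma adjusted p = 0.450). Ajuba stood at 8179 and 7732 and then at 7911 and 7547 (log2 -0.04 ± 0.07, limma adjusted p = 0.687).

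In KO-labelled cells the same 4 genes rose, Ankrd1, Amotl2 and Lats2 fell, and Crim1, Axl and Ajuba did not pass. That makes 7 calls of 10, against 30.9% of all tested genes and 34.1% of those with a mean of at least 1000, and all 7 had the WT direction. The 4 higher and 3 lower calls stand against 15.1% and 15.8% of all genes, the 3 calls of at least 2-fold against 5.7%, and the 8 genes without overlap between treatments against 67.1%. Both treatments' libraries are separate in the 2 genotypes, so the responses share no control. The median was 0.10, beside -0.02 over all tested genes.

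Ctgf went from 17280.0 and 18533 under SB505124 to 40488 and 37060.4 under TGFβ, 2.16-fold (log2 1.11 ± 0.09, limma adjusted p = 1.6e-08). Both KO-labelled TGFβ libraries thus stayed below both WT ones. Cyr61 went from 10469 and 11280.1 to 21247 and 19274, 1.86-fold (log2 0.90 ± 0.09, limma adjusted p = 3.2e-07). F3 again had the largest rise of the 10, from 5881 and 6443 to 35917 and 33957, 5.67-fold (log2 2.50 ± 0.09, limma adjusted p = 5.5e-14). Nt5e rose from 883 and 938 to 1668 and 1597, 1.79-fold (log2 0.84 ± 0.08, limma adjusted p = 2.4e-07), and its groups lay further apart than in WT.

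Ankrd1 went from 27491 and 26509 to 13336 and 13343 (log2 -1.02 ± 0.08, limma adjusted p = 7.4e-09). Amotl2 went from 9276 and 9941 to 7266 and 6719 (log2 -0.46 ± 0.08, limma adjusted p = 0.000247). Lats2 went from 1822 and 1811 to 1504 and 1375 (log2 -0.34 ± 0.08, limma adjusted p = 0.00346), a call lost without KO TGFβ replicate 2 (limma adjusted p = 0.0728). In all 3 the libraries of the treatments were apart. Crim1 did not pass (10323 and 10323 against 10682 and 8718, limma adjusted p = 0.454). Its TGFβ replicates lay on either side of the SB505124 level, and without KO TGFβ replicate 2 the sign of the log2 fold change turned, from -0.10 to 0.05. Axl, at 36570.3 and 38650.2 against 44860 and 37381, did not pass either (limma adjusted p = 0.389), and its sign turned without KO TGFβ replicate 1 (from 0.12 to -0.01). Ajuba stood at 4233 and 4312 against 4459 and 4572 (limma adjusted p = 0.457).

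**Figure D2:**
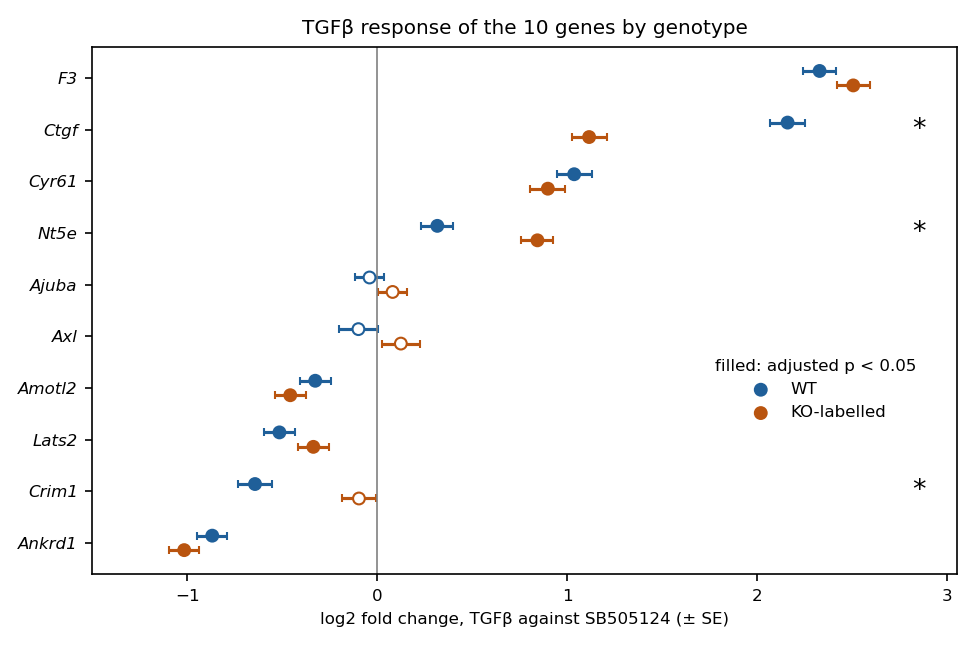
Log2 fold change of TGFβ against SB505124 (horizontal axis, ± SE) for the 10 genes in WT (blue) and KO-labelled cells (orange), filled where the limma adjusted p was under 0.05; a star marks genes whose responses differed between genotypes. The points for Ctgf lie at 2.16 and 1.11, and those for F3 at 2.33 and 2.50.

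The test of the difference between the responses (KO minus WT) called 3 of the 10 genes, against 2.82% of all tested genes and 3.54% of those with a mean of at least 1000. The 2 higher and 1 lower calls stand against 2.25% and 0.568% of all genes, and the 1 call of at least 2-fold, Ctgf, against 0.592%. Ctgf responded less in KO-labelled cells, by a log2 difference of -1.04 ± 0.13 (limma adjusted p = 0.000142), and was in place 111 from the bottom of the 12498 genes. In the 17 alternatives the difference lay between -1.11 and -0.98 and the adjusted p did not exceed 0.0448. Nt5e responded more, by 0.53 ± 0.12 (limma adjusted p = 0.0188), and so did Crim1, by 0.55 ± 0.13 (limma adjusted p = 0.0244). The calls of Nt5e (7 of 17 alternatives, highest adjusted p 0.132) and Crim1 (5 of 17, highest adjusted p 0.242) were not kept throughout. Both were lost without WT SB505124 replicate 1, WT SB505124 replicate 2 or KO TGFβ replicate 1, and Nt5e also without WT TGFβ replicate 2 or KO SB505124 replicate 1. Over all genes the count of 352 was 141 without WT SB505124 replicate 1, 168 without WT SB505124 replicate 2, 150 without KO TGFβ replicate 1 and 1027 without WT TGFβ replicate 1.

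The other 7 genes did not pass. Their log2 differences ran from -0.15 ± 0.11 for Ankrd1 (limma adjusted p = 0.550) to 0.22 ± 0.14 for Axl (limma adjusted p = 0.467), with Cyr61 at -0.14 ± 0.13 and F3 at 0.18 ± 0.12. The ratio of Ctgf to Cyr61, the CCN pair that is often read together as YAP output, was computed per exon length. The exon bases that Ctgf shares with Gm15270 were kept in its length, so the level of the ratio is uncertain. In WT it was 0.822 and 0.839 under SB505124 and 1.77 and 1.85 under TGFβ. In KO-labelled cells it was 1.16 and 1.16, then 1.34 and 1.36. The ratio was thus higher in KO-labelled libraries under SB505124 and lower in them under TGFβ, with no overlap between any of the 4 groups.

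Under SB505124, with the receptor inhibited, KO-labelled and WT cells already differed in most of the 10 genes. Ankrd1, Axl, Crim1 and Ctgf were higher and Ajuba, Nt5e, Amotl2, Lats2 and Cyr61 lower in KO-labelled cells, and F3 did not pass. These 9 calls of 10 stand against 56.9% of all tested genes and 58.4% of those with a mean of at least 1000. In the alternatives with no library left out, 6 to 9 of the 10 were called, so the count can come near that share. The 4 higher and 5 lower calls stand against 29.2% and 27.7% of all genes, and the 9 genes without overlap between genotypes against 78.8%. None of the 10 reached 2-fold, against 15% of all genes. The median of the 10 was -0.17, beside 0.01 over all genes.

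Ajuba had the largest difference, at 8179 and 7732 in WT and 4233 and 4312 in KO-labelled libraries (log2 -0.90 ± 0.07, limma adjusted p = 7.7e-09), with a wide gap between the groups. Ankrd1 was 1.33-fold higher (log2 0.42 ± 0.08, limma adjusted p = 0.000197). Amotl2 (log2 -0.37 ± 0.08, limma adjusted p = 0.000682) and Nt5e (log2 -0.40 ± 0.08, limma adjusted p = 0.000545) were lower. These 4 calls held in all 14 alternatives. Axl (0.33 ± 0.10), Crim1 (0.27 ± 0.09), Lats2 (-0.27 ± 0.08) and Cyr61 (-0.26 ± 0.09) passed with limma adjusted p between 0.00879 and 0.0216. Each of these was lost in 1 to 4 of 14 alternatives. Axl was lost without WT SB505124 replicate 2 or KO SB505124 replicate 2 (highest adjusted p 0.0751), Crim1 without WT SB505124 replicate 2 (highest over its alternatives 0.135), Lats2 without WT SB505124 replicate 1 (0.0574), and Cyr61 without replicate 1 of either group (highest 0.198). Ctgf, 1.17-fold higher (log2 0.23 ± 0.09, limma adjusted p = 0.0427), was lost in 8 of 14, among them each of the 4 libraries left out (highest adjusted p 0.253).

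Under TGFβ, 7 of the 10 genes differed between the genotypes, against 62.9% of all tested genes and 65.4% of those with a mean of at least 1000, and these 7 calls held in all 14 alternatives. Crim1, Axl and Ankrd1 were higher and Ctgf, Ajuba, Amotl2 and Cyr61 lower in KO-labelled cells. The 3 higher and 4 lower calls stand against 32.7% and 30.2% of all genes, and the 8 genes without overlap against 79.8%. These counts are near the shares of all genes, so they mark nothing particular to the 10. None of the 10 was called at 2-fold or more, against 16.5% of all genes, and their median was 0.00, beside 0.01. Crim1 was 1.77-fold higher (log2 0.82 ± 0.09, limma adjusted p = 2.8e-07) and Axl 1.46-fold higher (log2 0.55 ± 0.10, limma adjusted p = 0.000114), each without overlap. Ctgf was 1.76-fold lower (log2 -0.82 ± 0.09, limma adjusted p = 3.6e-07), so that its sign was opposite to that under SB505124. Cyr61 was 1.32-fold lower (log2 -0.40 ± 0.09, limma adjusted p = 0.000964). Ankrd1 was 1.20-fold higher (limma adjusted p = 0.00675), Amotl2 1.42-fold lower (limma adjusted p = 2.8e-05) and Ajuba 1.71-fold lower (limma adjusted p = 5.0e-08). F3, Lats2 and Nt5e did not pass (log2 0.09, -0.09 and 0.13, limma adjusted p 0.395, 0.361 and 0.183).

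Position on the chromosome moves with some of these values. Ajuba (chr14:54567472-54577558) and Lats2 (chr14:57689662-57758388) lie on a chromosome whose tested genes were lower in KO-labelled cells, with a median log2 fold change of -0.62 under SB505124 and -0.58 under TGFβ over 400 genes. Among the 20 tested genes nearest to Ajuba, 15 were called lower and the median was -0.74 under SB505124. Near Lats2, 17 of 20 were called lower, with a median of -0.70. Of all tested genes, 27.7% were called lower in this comparison. Ajuba thus lay close to its neighbours, and Lats2 above its own. The 20 neighbours of Ctgf had a median of 0.55 under SB505124 and 0.50 under TGFβ, while their median for the difference of responses was -0.00, beside -1.04 for Ctgf. The neighbours of Ankrd1 had medians of 0.32 and 0.34. Under SB505124 the neighbour medians of the remaining genes were 0.10 (Cyr61), -0.01 (Amotl2), 0.28 (F3), 0.02 (Nt5e), 0.10 (Crim1) and -0.03 (Axl). Cyr61, Amotl2 and Nt5e were lower in KO-labelled cells without such a shift in their neighbours. Whether the position has a part in the differences between genotypes was not tested.

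**Figure D3:**
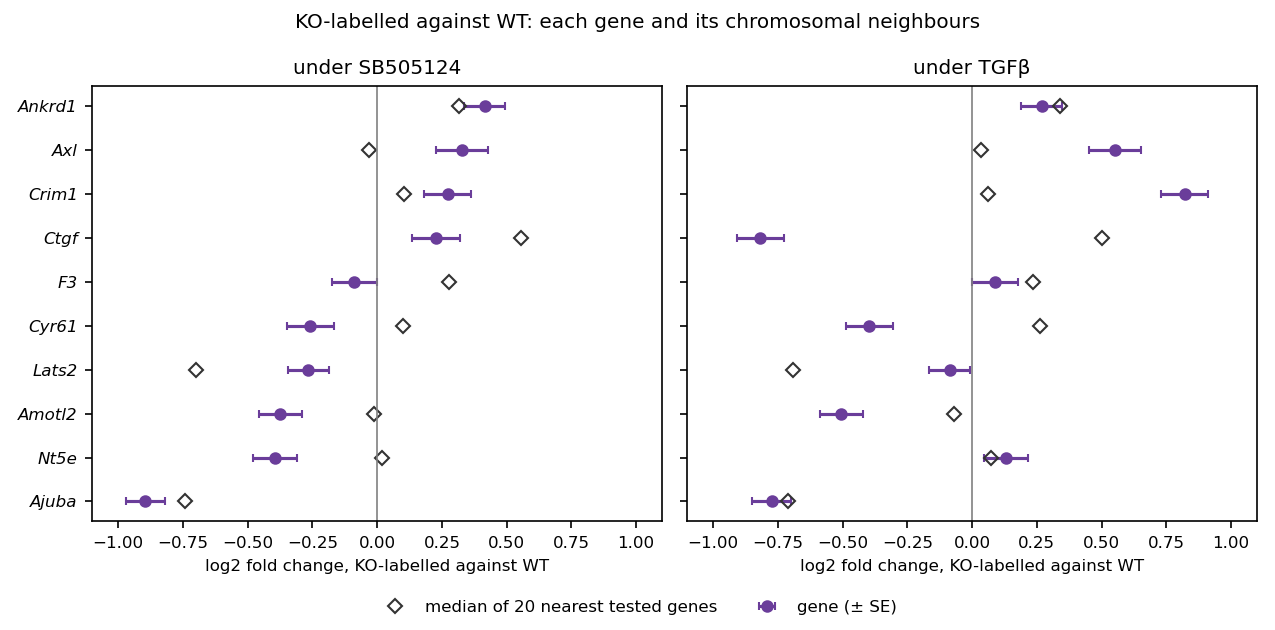
Log2 fold change of KO-labelled against WT cells (horizontal axes) under SB505124 (left) and TGFβ (right) for the 10 genes (circles, ± SE) and the median of the 20 nearest tested genes (open diamonds). Ajuba lies near its neighbours in both panels, and Ctgf lies at 0.23 on the left and at -0.82 on the right.

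The rest of the pathway was described by lists of its known genes, with the counts of calls in each list. Of 13 further genes from published YAP signatures, 12 were tested and Rbms3 was not, with 1 read in 1 library. In WT, 5 rose and 5 fell (20.2% and 23.2% of all genes; median 0.12, beside -0.01 over all genes). In KO-labelled cells 5 rose and none fell (15.1% and 15.8% of all genes; median 0.26, beside -0.02). The stress kinase gene Nuak2 rose from 774 ± 29.5 to 2821 ± 63.7 in WT and from 1194 ± 28.2 to 4576 ± 146 in KO-labelled cells (mean ± SD, n = 2). Foxf2, a forkhead factor gene, rose by 1.41 and 1.50 and the growth arrest gene Gadd45a by 1.48 and 1.25 on the log2 scale. Myof, which encodes a membrane repair protein, fell by 0.53 in WT and had -0.19 in KO-labelled cells, where it did not pass. As among the 10 genes, YAP signature genes thus went in both directions in WT. None of the 12 passed the test of the difference between genotypes, against 2.82% of all tested genes. Between genotypes 11 of 12 were called under SB505124 (7 higher, 4 lower), against 56.9% of all tested genes, and all 12 under TGFβ (8 higher, 4 lower), against 62.9%.

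Of 16 genes for kinases and scaffolds of the pathway 15 were tested (Dchs1 is not analysed here). In WT 9 of the 15 fell and 1 rose under TGFβ, against 23.2% of all genes called lower and 20.2% called higher, with a median of -0.31, beside -0.01 over all genes. In KO-labelled cells 5 fell and 2 rose, against 15.8% and 15.1%, with a median of -0.23, beside -0.02. Mob1a, an activating subunit of LATS kinases, went from 1401 ± 47.7 to 661 ± 80.3 in WT (log2 -1.09) and from 1612 ± 257 to 1144 ± 149 in KO-labelled cells (log2 -0.49). The difference between these responses did not pass (limma adjusted p = 0.0569). Mob1b fell by 0.80 and 0.39, Stk4, which encodes the Hippo kinase MST1, by 0.40 and 0.36, and the upstream kinase gene Taok3 by 0.54 and 0.25. Frmd6, an upstream scaffold gene, rose in WT (log2 0.32) and had 0.03 in KO-labelled cells, and its difference did not pass (limma adjusted p = 0.205). Between genotypes 9 of the 15 were called under SB505124 (6 higher, 3 lower), against 56.9% of all tested genes. Under TGFβ 11 were called (9 higher, 2 lower), against 62.9%.

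Of the 8 genes for YAP, TAZ, TEAD and VGLL factors, 5 fell and 1 rose in WT (23.2% and 20.2% of all genes; median -0.27, beside -0.01), and 2 fell and 1 rose in KO-labelled cells (15.8% and 15.1% of all genes; median -0.17, beside -0.02). Yap1 fell from 4874 ± 87.5 to 3938 ± 305 in WT (log2 -0.31) and by 0.22 on the log2 scale in KO-labelled cells. Tead1 fell by 0.49 and 0.37, while Tead2 rose in WT (log2 0.36). Wwtr1, which encodes TAZ, did not pass in either genotype (log2 -0.18 and -0.17). Vgll4, which encodes a competitor of YAP for TEAD, was the one gene of these lists whose responses differed. Vgll4 fell from 328 ± 2.86 to 226 ± 23.3 in WT and rose from 467 ± 60.9 to 638 ± 60.8 in KO-labelled cells (log2 difference 1.00 ± 0.17, limma adjusted p = 0.00235). Between genotypes 6 of the 8 were called under SB505124 (4 higher, 2 lower), against 56.9% of all tested genes. All 8 were called under TGFβ (6 higher, 2 lower), against 62.9%. Tead2 and Tead3 were lower in KO-labelled cells under SB505124 (log2 -0.78 and -0.92) and Wwtr1 higher (log2 0.43).

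Relatives of Amotl2 and Ajuba differed between genotypes. All 4 were called under SB505124 and under TGFβ, 2 higher and 2 lower each time. These calls stand against 56.9% and 62.9% of all tested genes. In response to TGFβ, 1 of the 4 rose and 1 fell in each genotype. The shares of all genes were 20.2% and 23.2% in WT and 15.1% and 15.8% in KO-labelled cells. Wtip, an Ajuba-family gene, stood at 814 ± 9.89 and 1201 ± 6.80 in WT under SB505124 and TGFβ, and at 7.08 ± 3.43 and 6.44 ± 0.416 in KO-labelled cells. Limd1, of the same family, was higher in KO-labelled cells (log2 0.88 and 0.90), as was Amot (log2 1.24 and 1.55), while Amotl1 was lower (log2 -0.55 and -0.35). Of the CCN relatives of Ctgf and Cyr61, Wisp1 rose from 297 ± 21.1 to 992 ± 64.0 in WT and from 830 ± 42.5 to 2661 ± 248 in KO-labelled cells. Its responses of 1.73 and 1.68 (log2) did not pass a test of their difference (limma adjusted p = 0.887). Nov stood at 57.8, 44.1, 30.5 and 21.7 in the 4 WT libraries and at 0.931, 0, 0 and 0 in the KO-labelled ones. Wisp2 and Wisp3 were below the filter. Of the 2 tested CCN relatives, 1 was called higher and 1 lower in KO-labelled cells under either treatment. All genes called higher and lower made up 29.2% and 27.7% under SB505124 and 32.7% and 30.2% under TGFβ. In response to TGFβ, 1 of the 2 relatives was called in each genotype, and it was higher. That stands against 20.2% of all genes called higher in WT and 15.1% in KO-labelled cells.

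**Figure D4:**
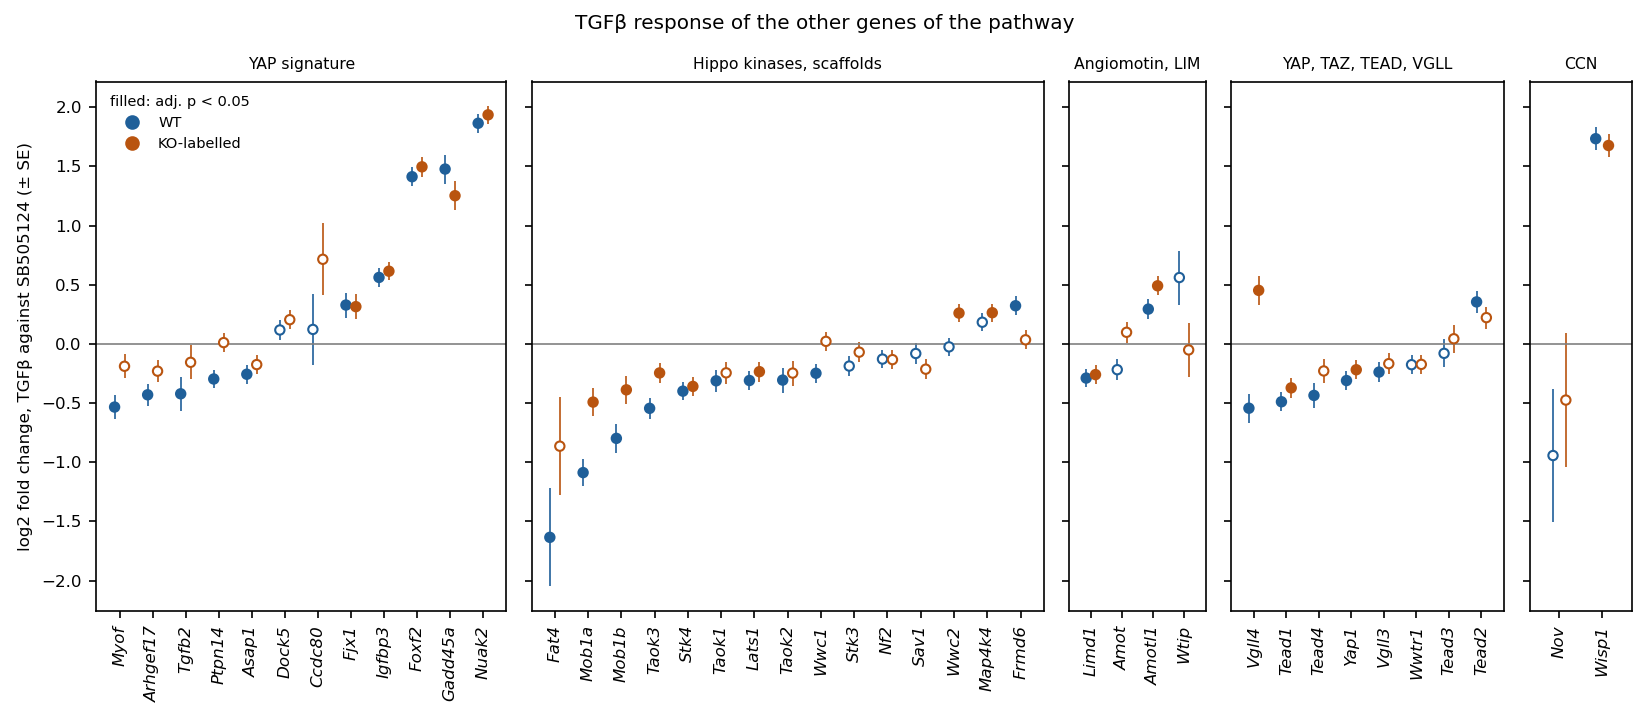
Log2 fold change of TGFβ against SB505124 (vertical axis, ± SE) for the tested genes of the 5 pathway lists in WT (blue) and KO-labelled cells (orange), filled where the limma adjusted p was under 0.05. Vgll4 lies at -0.54 in WT and at 0.45 in KO-labelled cells, and Nuak2 lies near the top in both.

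Levels among the 10 genes were compared per kilobase of annotated exon, as normalised counts per kb. Exon bases shared with another gene were kept in the length (23.2% for Ctgf, 42.4% for Lats2, 2.05% for Crim1). The places of these genes in the order are therefore uncertain. In WT under SB505124 the order was Ankrd1 (7013), Cyr61 (6446), Axl (5954), Ctgf (5349), F3 (2594), Ajuba (2182), Amotl2 (1979), Crim1 (1426), Lats2 (313) and Nt5e (139), and no neighbours in that order overlapped. Under TGFβ in WT, Ctgf (23887) came first, ahead of Cyr61 (13227) and F3 (13015), which overlapped, and Ankrd1 followed Axl (3840.2 and 5563). In KO-labelled cells under SB505124, Ankrd1 (9355) led Axl (7473), Ctgf (6259) and Cyr61 (5386), and under TGFβ F3 (13826) and Ctgf (13553) overlapped at the top. Lats2 and Nt5e were the lowest in all 4 groups.

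Across the 8 libraries the 45 pairs among the 10 genes had Pearson correlations of log2 values from -0.98 (Cyr61 and Ankrd1) to 0.96 (Ctgf and Cyr61), with a median of -0.23, and 25 were below 0. These correlations describe 4 group means more than 8 separate points, since the libraries of a group share their treatment. By the same measure the 2 tested genes most like each member were found. Predicted genes (Gm, LOC and Rik names), repeated symbols and symbols turned into dates were left out of this search. For Ctgf they were Arc (r = 0.991) and Elf3 (0.988), for Cyr61 Ncam1 (0.995) and P2ry14 (0.994), and for F3 Smad7 (0.999) and Pmepa1 (0.998). For Ankrd1 they were Tbcel (0.996) and Gzf1 (0.994), for Nt5e Tle3 (0.995) and Csf1 (0.991), and for Amotl2 Slc17a8 (0.993) and Pax8 (0.989). Crim1 was most like Erlin2 (0.995) and Mtdh (0.994), Axl like Myo18a (0.992) and Ttc13 (0.987), and Lats2 like Pwp2 and Urb1 (0.994 each). For Ajuba, Loxl4 (0.999) is given.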

How the data were processed

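The authors deposited 1 normalised signal value per gene and library. The submitters' processing notes name HTSeq 0.6.1p1, DESeq2 3.4, FastQC 0.11.5 and the mm10 build; the aligner is not given in the sources used here. All values (100% within 0.01 reads) were whole multiples of 1 step per library, as read counts divided by a size factor are, so reads were recovered. Genes with a mean of at least 10 were tested on log2(value + 1), which understates the change of low genes, with limma 3.58.1 (R 4.3.3, variance trend, 4 group means, 8 libraries). The procedure was tested on simulated data. edgeR 4.0.16 and DESeq2 1.42.0 were run on recovered reads as alternatives, with other pseudocounts, filters, scaling, a replicate block and libraries left out. On those reads edgeR called 5552 (TGFβ in WT), 4023 (TGFβ in KO), 7233 (KO against WT under SB505124), 7926 (under TGFβ) and 418 genes (difference of responses). Exon lengths and neighbours come from GENCODE M21 (GRCm38, which is mm10), matched for 98.6% of symbols. Named genes were the 10 members, Rreb1, list genes with small p-values or differing responses, and the 2 most similar genes per member, of which 1 is not reported here. Members and lists were chosen with earlier results of these data known. Replicates of a group differed by more than counting noise.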

Additional observations from a re-analysis of the deposited data

Results flagged for a closer look

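The TGFβ response of 3 of the 10 genes differed between KO-labelled and WT cells by the test of the difference itself (limma, n = 2 per group). This stands against 2.82% of all tested genes and 3.54% of those with a mean of at least 1000. The log2 difference, KO minus WT, was -1.04 for Ctgf (limma adjusted p = 0.000142), 0.53 for Nt5e (limma adjusted p = 0.0188) and 0.55 for Crim1 (limma adjusted p = 0.0244). The calls of Nt5e and Crim1 were lost without a filter on low values and without a variance trend, while that of Ctgf was kept. The groups hold 2 libraries each, so single libraries were not screened for extreme values.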

How the results depend on the processing

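For 50 values of single genes (10 genes, 5 comparisons), the alternative settings gave 730 refitted values in all. Of these, 697 kept their direction and side of the threshold, 31 lost the call and 2 turned their sign. Those 2 did not pass the test in the first place: the TGFβ response in KO-labelled cells ran from -0.24 to 0.0493 for Crim1 with a library left out (highest without KO TGFβ replicate 2), and from -0.00826 (without KO TGFβ replicate 1) to 0.25 for Axl. The number of the 10 genes called for the difference of responses was 3, and 1 without a filter or without a variance trend, and 1 to 3 with a library left out. Over all genes that count was 352, 134 without a filter, 47 without a variance trend, and 141 (without WT SB505124 replicate 1) to 1027 (without WT TGFβ replicate 1) with a library left out, with 150 without KO TGFβ replicate 1 and 168 without WT SB505124 replicate 2. For TGFβ in KO-labelled cells the count over all genes was 3864, and 2320 (without KO TGFβ replicate 2) to 3938 with a library left out (2332 without KO SB505124 replicate 1). The cause was not tested. With the replicate block the members called numbered 8, 7, 9, 7 and 3 in the 5 comparisons, as without it, and the difference of responses called 252 genes; the block changed no call of a member. Same-numbered libraries of the groups compared deviated together with r from -0.05 to 0.20 across genes. Between WT under TGFβ and KO-labelled cells under SB505124, which meet only in the difference of responses, r was -0.20. The labels tie no number to a shared culture or day, so whether same-numbered libraries shared either is not known. Depth does not limit the members, whose lowest count was 949 reads.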

Other observations

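The side on which replicates lay was counted in each group. Replicate 1 was higher than replicate 2 for 10 of 10 genes in WT under SB505124 (47.7% of all tested genes), 9 of 10 in WT under TGFβ (46.7%), 3 of 10 in KO-labelled cells under SB505124 (55.5%) and 8 of 10 in KO-labelled cells under TGFβ (52.2%). The largest gap between replicates was 22.5%, for Crim1 in KO-labelled cells under TGFβ.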
